A study of Mus musculus with 3 samples.

Results

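Interferon beta and the genes that answer type I interferon were followed in RAW 264.7 cells, a transformed mouse macrophage line, after stimulation with lipopolysaccharide (LPS), the bacterial ligand of the receptor TLR4. The set holds 36 genes listed by mouse symbol: interferon beta, its receptor subunits, Stat2 and antiviral response genes, without interferon regulatory factors and without interferon-induced GTPases other than Mx1 and Mx2. All 36 were found among the 54331 features of the table, and all 36 had a mean value of at least 10 and so belonged to the 13877 features that were tested. There were 3 libraries, each from cells of the same line (BALB/c background, male) treated with LPS at 100 ng/mL for 5 h. The control group was 1 library from wild-type cells carrying a control shRNA. The GIV-depleted group was 2 libraries from cells carrying shRNA 1 or shRNA 2, both directed against GIV (Girdin, gene Ccdc88a), a scaffold and modulator of G proteins, which the study's design counts as biological replicates. No library without LPS was analysed here, so what LPS itself induced cannot be read from these values.

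When TLR4 is engaged, the adaptor TRIF and the kinase TBK1 activate the factor IRF3, which together with NF-kB and AP-1 factors turns on the interferon beta gene. The secreted interferon binds the receptor IFNAR on the same or neighbouring cells, and the kinases JAK1 and TYK2 then phosphorylate STAT factors, STAT2 among them. With IRF9 these form the complex ISGF3, which binds interferon-stimulated response elements in the promoters of antiviral genes, many of which are among the most abundant induced transcripts of LPS-treated macrophages.

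The 250 bases before the annotated start are shown for interferon beta and for 7 response genes, chosen to show each kind of motif match. All 7 were picked because they hold the response element core, which some other response genes also hold and others lack. The sequences are from RefSeq (GRCm38.p6), read 5′ to 3′ on the strand of the gene named in parentheses. Capitals mark matches, on either strand, to the core of the interferon-stimulated response element (GAAANNGAAA), to the gamma-activated site (TTCNNNGAA) or to a kappa B motif (GGGANNTTCC).
Ifnb1, chr4:88522795-88523044 (-): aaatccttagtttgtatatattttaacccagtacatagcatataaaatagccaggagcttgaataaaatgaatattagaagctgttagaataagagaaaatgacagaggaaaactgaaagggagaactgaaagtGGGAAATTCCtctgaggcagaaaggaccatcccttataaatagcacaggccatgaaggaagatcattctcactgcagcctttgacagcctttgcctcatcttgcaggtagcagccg
Ifit1, chr19:34640639-34640888 (+): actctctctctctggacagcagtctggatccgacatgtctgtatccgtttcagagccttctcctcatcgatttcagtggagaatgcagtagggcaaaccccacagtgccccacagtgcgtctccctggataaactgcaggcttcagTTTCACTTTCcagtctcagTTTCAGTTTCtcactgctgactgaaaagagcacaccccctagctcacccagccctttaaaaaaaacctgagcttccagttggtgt
Ifit3, chr19:34583279-34583528 (+): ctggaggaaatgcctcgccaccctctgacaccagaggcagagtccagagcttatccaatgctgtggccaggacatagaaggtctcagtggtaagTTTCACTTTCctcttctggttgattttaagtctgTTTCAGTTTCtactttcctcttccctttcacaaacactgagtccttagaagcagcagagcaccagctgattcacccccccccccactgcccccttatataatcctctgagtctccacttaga
Ifit3b, chr19:34607707-34607956 (+): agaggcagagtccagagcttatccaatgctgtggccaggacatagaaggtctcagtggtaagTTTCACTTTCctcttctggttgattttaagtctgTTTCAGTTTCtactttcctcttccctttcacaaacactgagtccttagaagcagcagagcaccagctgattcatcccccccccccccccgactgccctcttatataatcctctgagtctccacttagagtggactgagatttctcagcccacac
Isg15, chr4:156200819-156201068 (-): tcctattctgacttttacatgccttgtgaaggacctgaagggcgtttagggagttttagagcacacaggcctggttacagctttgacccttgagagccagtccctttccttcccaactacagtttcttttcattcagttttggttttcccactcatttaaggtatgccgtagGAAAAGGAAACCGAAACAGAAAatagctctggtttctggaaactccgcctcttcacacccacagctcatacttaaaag
Rsad2, chr12:26456453-26456702 (-): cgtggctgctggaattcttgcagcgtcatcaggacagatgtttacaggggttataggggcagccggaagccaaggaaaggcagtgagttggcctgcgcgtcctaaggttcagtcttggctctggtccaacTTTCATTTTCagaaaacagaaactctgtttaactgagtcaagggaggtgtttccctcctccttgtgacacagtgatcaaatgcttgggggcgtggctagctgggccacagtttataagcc
Oas1a, chr5:120907526-120907775 (-): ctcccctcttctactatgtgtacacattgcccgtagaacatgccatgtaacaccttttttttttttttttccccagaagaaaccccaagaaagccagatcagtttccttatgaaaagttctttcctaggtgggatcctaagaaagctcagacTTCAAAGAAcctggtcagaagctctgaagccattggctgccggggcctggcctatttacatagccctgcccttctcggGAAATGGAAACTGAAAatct
Stat2, chr10:128270248-128270497 (+): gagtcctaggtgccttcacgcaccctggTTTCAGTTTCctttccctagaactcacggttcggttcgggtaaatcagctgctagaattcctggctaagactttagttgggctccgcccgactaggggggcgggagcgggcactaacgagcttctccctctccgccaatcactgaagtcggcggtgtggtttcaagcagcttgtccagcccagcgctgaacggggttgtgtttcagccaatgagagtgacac

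RefSeq held promoter windows, from 250 bases before to 50 after the start, for 27 of the 36 genes, and 9 had no entry (Mx1, Mx2, Oas2, Usp18, Dhx58, Zbp1, Parp9, Parp14 and Rtp4). The interferon-stimulated response element core was found in 14 of the 27 genes (51.9%), against 3.99% of the 27025 genes in the promoter table. The gamma-activated site, bound by STAT dimers, was found in 8 of 27 (29.6%) against 9.55%, and the kappa B motif, bound by NF-kB, in 3 of 27 (11.1%) against 1.63%. Genes with several starts counted once if any of their windows matched. The window of Ifnb1 held the kappa B motif, at -116 to -107 from the start, and no match to the response element core as spelled here. The core was also not matched in Ifnar1, Ifnar2, Ifit2, Isg20, Cmpk2, Oasl1, Oasl2, Ifi35, Ifi44, Samd9l, Xaf1 and Dtx3l, and Ifit2 and Isg20 held the kappa B motif as Ifnb1 did. Ifit1, Ifit3 and Ifit3b each held 2 separate cores, whereas Isg15 held 3 that overlap between -78 and -57. The gamma-activated site overlapped the kappa B motif in Ifit2 and the response element core in Bst2. A match describes the letters in the window and says nothing about binding in these cells.

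**Figure D1:**
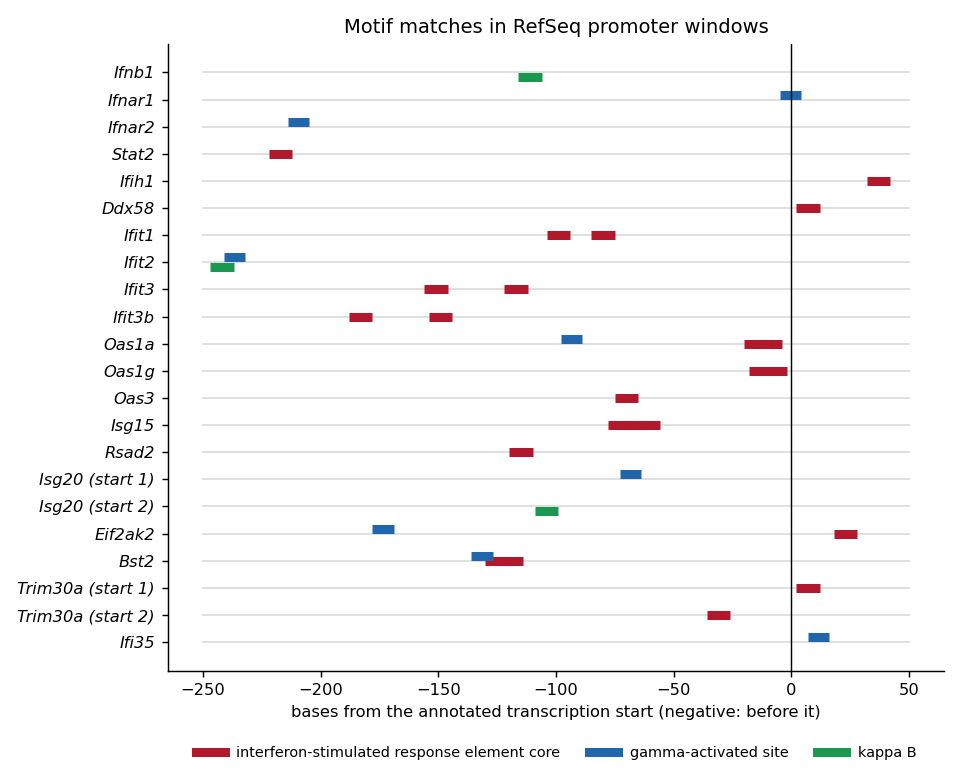
Positions of motif matches in RefSeq promoter windows of the genes with at least 1 match, in bases from the annotated start (x axis); each line is a window, and colours stand for the interferon-stimulated response element core, the gamma-activated site and the kappa B motif. The cores of Oas1a and Oas1g lie just before the start, those of Ifit1 and Isg15 between -104 and -57, and those of Ifih1 and Eif2ak2 after it; Ifnb1 has a kappa B match only.

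The libraries and their labels bear on every value below. Totals ranged from 47349097 to 49756670 normalized counts. The numbers of reads behind them were not recovered. About 1 read corresponded to a value of 0.931 in the control, 1.11 with shRNA 1 and 0.966 under the label shRNA 2. The mitochondrial share was 1.43% in the control, 0.995% with shRNA 1 and 1.14% under the label shRNA 2. Ccdc88a (chromosome 11) had 2580 normalized counts in the control, 1734 with shRNA 1 and 2561 under the label shRNA 2, a mean log2 difference of -0.29 (SE 0.28, adjusted p = 0.85 in limma). The latter library did not have less of the targeted transcript, and protein was not measured. Each direction taken from the library labelled shRNA 2 therefore rests on its label alone. All 9 macrophage markers passed the filter (Mertk only at 10.6 to 15.0). Of the 9, 6 were lower than the control in both other libraries, against 35.2% of all tested features. The summed value of the 9 was 452958 in the control, 343547 with shRNA 1 and 366179 under the label shRNA 2. Most of it was Lyz2 (199781, 121997 and 138145) and Cd14 (119577, 122965 and 112411), and Cd14 was not lower with shRNA 1. Of 7 fibroblast, 5 epithelial and 7 T, B and NK cell markers 1 passed (Ms4a1). Of 6 plasmacytoid dendritic cell markers 3 passed (Tcf4 at 3271 to 4197, Ccr9 at 51.8 to 80.6 and Runx2 at 15.8 to 33.2), and Siglech, Ly6d and Klk1 were listed at 0 in all 3 libraries. Of 5 conventional dendritic cell markers 3 passed (Itgax at 725 to 970, Xcr1 at 278 to 383 and Zbtb46 at 14.7 to 34.9), and Flt3 was listed at 0 in all 3. The plasmacytoid markers summed to 4293, 4222 and 3345 in the control, shRNA 1 and labelled shRNA 2 libraries and the conventional markers to 1129, 1281 and 1120.

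Interferon beta was the gene of the set that stood above the control in both libraries labelled GIV-depleted. Ifnb1 (ENSMUSG00000048806.4, chromosome 4, 88522025 to 88522774, GRCm38), the ligand, had 619.6 normalized counts in the control, 1338 with shRNA 1 and 1385 under the label shRNA 2. The libraries with shRNAs against GIV thus held 2.16 and 2.24 times the control's value, and lay closer to each other than to the control. The log2 difference, on the log2(value + 1) scale used throughout, was 1.13 (SE 0.16, n = 2 against 1), with an unadjusted p of 0.0021 and an adjusted p of 0.28 in limma. It did not pass an adjusted p of 0.05, and neither did any other gene of the set (0 of 36, against 0% of the 13877 features tested). At an unadjusted p under 0.05, Ifnb1 was the 1 gene of the set that was higher, where 4.52% of all tested features were, and 0 were lower, where 2.42% of all were. For each gene the spread behind these tests starts from the pair of GIV-depleted libraries, which carry different shRNAs, with 1 residual degree of freedom. The fit then draws that spread toward the trend over all tested features. Ifnb1 differed by 0.05 within the pair on the log2 scale, so its SE and p rest largely on other features. There is no measure of the control's own variation. Transcripts of other type I interferons were hardly seen. Of 17 interferon alpha, epsilon, kappa and zeta genes, 15 were listed at 0 in all 3 libraries, and the highest value, 1.11 for Ifna4 with shRNA 1, equals about 1 read.

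The receptor subunits were near the control. Ifnar1, the subunit that carries TYK2, had 3654, 3455 and 3253 normalized counts in the control, shRNA 1 and labelled shRNA 2 libraries, a log2 difference of -0.12 (SE 0.13). Ifnar2, the high-affinity subunit that carries JAK1, had 2828, 2380 and 2815, a log2 difference of -0.13 (SE 0.17). In the library labelled shRNA 2 Ifnar2 lay at the control's level, and its slightly negative log2 difference of -0.01 turned positive with equal column totals and with upper-quartile scaling. Per kilobase of the longest coding transcript, Ifnb1 had the lowest level of the 36 genes in the control, with 826 normalized counts per kb beside 928 for Ifnar2 and 935 for Ifnar1. In the other libraries Ifnb1 stood above both subunits, with 1784 per kb against 781 and 884 with shRNA 1, and 1846 against 924 and 832 in the library labelled shRNA 2.

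Stat2, a subunit of ISGF3, had 28794 normalized counts in the control, 26026 with shRNA 1 and 21427 under the label shRNA 2. Its value was lower in both libraries than in the control, by a mean log2 difference of -0.29 (SE 0.17) that did not pass in limma (adjusted p = 0.79). The library labelled shRNA 2 was the lower of the pair, and this order recurred in most of the response genes.

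**Figure D2:**
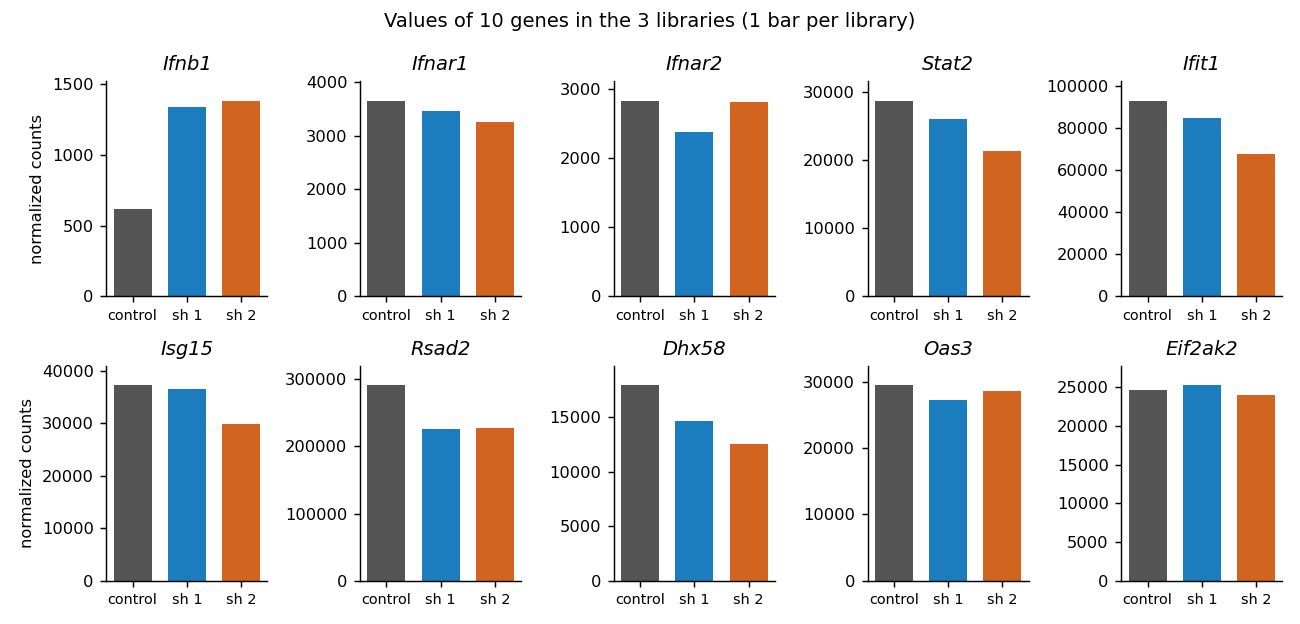
Normalized counts (y axis, from 0) of 10 genes in the control, shRNA 1 and labelled shRNA 2 libraries, 1 bar per library, with no error bars because each bar is a single library. Ifnb1 is higher in both libraries with shRNAs against GIV (1338 and 1385 against 619.6), Rsad2 is lower in both, and Stat2, Ifit1, Isg15 and Dhx58 are lowest in the library labelled shRNA 2.

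Values of the antiviral genes were mostly below the control, slightly with shRNA 1 and more in the library labelled shRNA 2. Over the whole set, 26 of 36 genes were lower than the control in both libraries, against 35.2% of all tested features. The 1 gene higher in both was Ifnb1, against 34.9%. Among features with a mean of at least 10000, a level most of these genes reach, the shares were 40.0% and 30.6%. With equal column totals 2 genes of the set were higher in both, as Eif2ak2 was added. With shRNA 1, 26 of 36 genes were lower, against 49.8% of tested features, and the median log2 difference was -0.10, beside 0.00 over all tested features. In the library labelled shRNA 2, 35 of 36 were lower, against 50.3%, and the median was -0.36, beside -0.00 over all tested features. No gene of the set was lower by at least 1.5-fold in either library. Of all tested features, 7.85% were with shRNA 1 and 7.19% under the label shRNA 2. Of those with a mean of at least 10000, only 1.64% and 2.15% were, so the absence does not set these mostly abundant genes apart. Ifnb1 alone was higher by at least 1.5-fold, in both libraries, where 8.83% of features were with shRNA 1 and 9.99% under the label shRNA 2. The lower values were thus many and small. In bulk RNA, fewer responding cells and less RNA per cell cannot be told apart.

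The 33 response genes, taken without Ifnb1 and the receptor subunits, summed to 1581610 normalized counts in the control, 1470432 with shRNA 1 and 1246325 under the label shRNA 2. That was 3.22%, 2.96% and 2.63% of each library's total. All 33 were lower than the control in the library labelled shRNA 2, in which Ccdc88a stood at the control's level, and 24 were lower with shRNA 1, in which Ccdc88a was lower. The other 9 were slightly higher with shRNA 1 (Ifih1, Ddx58, Parp9, Parp14, Dtx3l, Eif2ak2, Trim30a, Ifi44 and Xaf1). With shRNA 1 the signs of Ifih1, Parp14, Dtx3l, Eif2ak2, Trim30a, Isg15, Isg20, Usp18, Oasl1 and Cmpk2 changed under at least 1 other scaling or with the trend on GC content and length removed. Across those settings 21 to 25 of the 33 were lower in both libraries, and 31 to 33 were lower in the library labelled shRNA 2, where the signs of Oas3 and Eif2ak2 changed. The macrophage marker sum, mostly Lyz2 and Cd14, and the mitochondrial share were also below the control in both libraries, but lowest with shRNA 1. The plasmacytoid marker sum, mostly Tcf4, was lowest in the library labelled shRNA 2. The part of these sums and of the mitochondrial share in the values of the response genes was not tested.

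**Figure D3:**
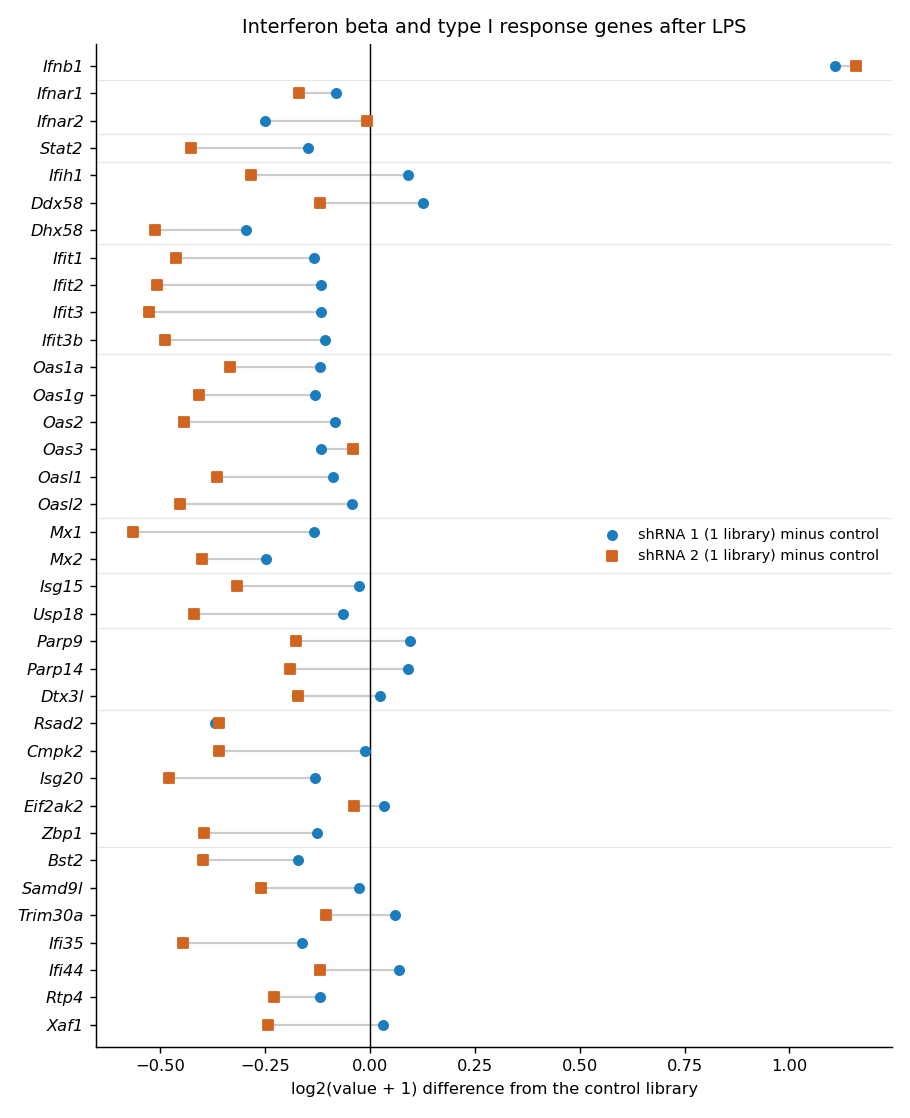
Log2(value + 1) difference from the control library (x axis) for the 36 genes (y axis, grouped by role), with shRNA 1 as circles and shRNA 2 as squares, each a single library. Ifnb1 lies above 1 in both, while the squares of the 33 response genes lie between -0.56 and -0.04 and 24 of their circles lie below 0.

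The IFIT family binds foreign RNA and blocks its translation. Its 4 genes in the set lie on the same strand of chromosome 19 between 34550694 and 34650009 (GRCm38). Ifit1, which recognises RNA with unmethylated caps, had 93049 normalized counts in the control, 84942 with shRNA 1 and 67605 under the label shRNA 2. Ifit2 had 124426, 114824 and 87637. All 4 listed genes of the family were lower in both libraries. Their log2 differences lay within a narrow range of -0.13 to -0.11 with shRNA 1 and of -0.53 to -0.46 under the label shRNA 2. Ifit3 had 68675, 63413 and 47688 normalized counts, and its copy Ifit3b had 21135, 19617 and 15079. The longest coding transcripts of these copies were identical at 97.8% of 1700 aligned bases, and their promoters shown above at 96.9% of 224, so the division of reads between them is uncertain.

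Among the 2′-5′ oligoadenylate synthetases, which make the activator of the RNA-degrading enzyme RNase L, Oas3 departed from the others. Oas1a had 26135 normalized counts in the control, 24089 with shRNA 1 and 20741 under the label shRNA 2, and Oas2 had 25031, 23653 and 18421. Oas3, which lies next to Oas2 on chromosome 5 at a distance of 3244 bases, had 29447, 27171 and 28647. For Oas3 the library labelled shRNA 2 lay above the shRNA 1 library and only -0.04 from the control on the log2 scale, a sign that turned positive with equal column totals and with quantile normalization. Oas1g, whose longest coding transcript was 97.6% identical to that of Oas1a over 1861 aligned bases, had 17572, 16059 and 13268, and is uncertain for that reason. The related Oasl1, which restrains translation of Irf7 mRNA, had 88216, 83015 and 68566, and Oasl2 had 33683, 32725 and 24642. Their log2 differences were -0.09 and -0.04 with shRNA 1 and -0.36 and -0.45 under the label shRNA 2.

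The MX genes encode dynamin-like GTPases that trap viral components, and Mx1 is defective in most inbred laboratory mouse strains. Mx2 is annotated as a polymorphic pseudogene, so an intact product of either gene cannot be assumed here. Mx1 had 26683 normalized counts in the control, 24347 with shRNA 1 and 18041 under the label shRNA 2, where its log2 difference of -0.56 was the lowest of the set. Mx2 had 17145, 14440 and 12990, with a mean log2 difference of -0.32 (SE 0.14, adjusted p = 0.73 in limma). Of the ISG15 system, Isg15, a ubiquitin-like modifier, had 37285, 36637 and 29958. Usp18, the protease that removes ISG15 and also restrains IFNAR signalling, had 59619, 57047 and 44612. Isg15 differed from the control by -0.03 and Usp18 by -0.06 on the log2 scale with shRNA 1, and by -0.32 and -0.42 under the label shRNA 2.

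The cytosolic RNA sensors were split. Dhx58 (LGP2), a helicase without a signalling domain that tunes the other sensors, had 17915 normalized counts in the control, 14615 with shRNA 1 and 12575 under the label shRNA 2. Its mean log2 difference of -0.40 (SE 0.15, adjusted p = 0.73 in limma) was the most negative of the 36. Ifih1 (MDA5), which senses long double-stranded RNA, had 41617, 44340 and 34215. Ddx58 (RIG-I), which senses RNA with 5′ triphosphates, had 30383, 33185 and 28010. Ifih1 and Ddx58 were thus above the control with shRNA 1 and below it in the library labelled shRNA 2, and their mean log2 differences of -0.10 (SE 0.21) and 0.00 (SE 0.16) lay within the spread of the pair.

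A second set of genes with this split was the PARP9, PARP14 and DTX3L group, ADP-ribosyltransferases and a ubiquitin ligase. Parp9 had 19257 normalized counts in the control, 20576 with shRNA 1 and 17052 under the label shRNA 2. Parp14 had 61172, 65135 and 53643, and Dtx3l had 13516, 13747 and 12007. The genes lie together on chromosome 16, and Dtx3l and Parp9, on opposite strands, overlap by 682 bases at their annotated starts. The 3 log2 differences were 0.02 to 0.10 with shRNA 1 and -0.19 to -0.17 under the label shRNA 2.

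Rsad2 was about equally low in both libraries. Rsad2 (viperin), an enzyme that makes a chain-terminating nucleotide, was the gene of the set with the highest level per kilobase in the control, at 76813 normalized counts per kb, followed by Isg15 at 49318 and Bst2 at 46534. Rsad2 had 290505 normalized counts in the control, 225174 with shRNA 1 and 226635 under the label shRNA 2, a mean log2 difference of -0.36 (SE 0.17, adjusted p = 0.74 in limma). Cmpk2, the nucleotide kinase that supplies its substrate and lies 12751 bases away on the opposite strand of chromosome 12, had 120832, 119903 and 94196. Cmpk2 was therefore at the control's level with shRNA 1, where its neighbour Rsad2 was not. Isg20, an exonuclease, had 12867, 11748 and 9233. Zbp1, a sensor of Z-form nucleic acid that can start necroptosis, had 23475, 21537 and 17862. Eif2ak2 (PKR), the kinase that stops translation when it binds double-stranded RNA, had 24625, 25220 and 23993, with log2 differences of 0.03 and -0.04 whose signs changed between scalings.

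The remaining antiviral genes were either lower in both libraries or split between them, and all were lowest in the library labelled shRNA 2. Bst2 (tetherin), which holds budding virus on the cell surface, had 36855 normalized counts in the control, 32716 with shRNA 1 and 27992 under the label shRNA 2. Ifi35 had 12465, 11156 and 9154, Rtp4 had 10536, 9704 and 8992, and Samd9l had 42624, 41878 and 35623. These 4 were lower in both libraries. Trim30a, a ubiquitin ligase that limits TLR signalling, had 47765, 49821 and 44430. Ifi44 had 68494, 71936 and 63087, and Xaf1, an antagonist of inhibitors of apoptosis, had 9812, 10034 and 8302. These 3 were above the control with shRNA 1 by at most 0.07 log2 units and below it in the library labelled shRNA 2.

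Set against each other, the libraries labelled GIV-depleted differed more in the response genes than the shRNA 1 library differed from the control. The value in the library labelled shRNA 2 was below that with shRNA 1 in 32 of the 36 genes, against 50.5% of all tested features, and the median difference between them was -0.27, beside -0.00 over all. The exceptions were Ifnb1, Ifnar2, Oas3 and Rsad2. In 32 of 36 genes the library labelled shRNA 2 was the lowest of the 3. That held for 32.6% of all tested features and for 48.9% of those with a mean of at least 10000. Abundant features tended the same way, and these genes are abundant. Of the 978 features with a mean of at least 10000, 64.0% were lower than the control in the library labelled shRNA 2, 69.2% were lower in the library labelled shRNA 2 than with shRNA 1, and their median difference from the control was -0.06. With 1 library per shRNA there is no test of this difference.

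**Figure D4:**
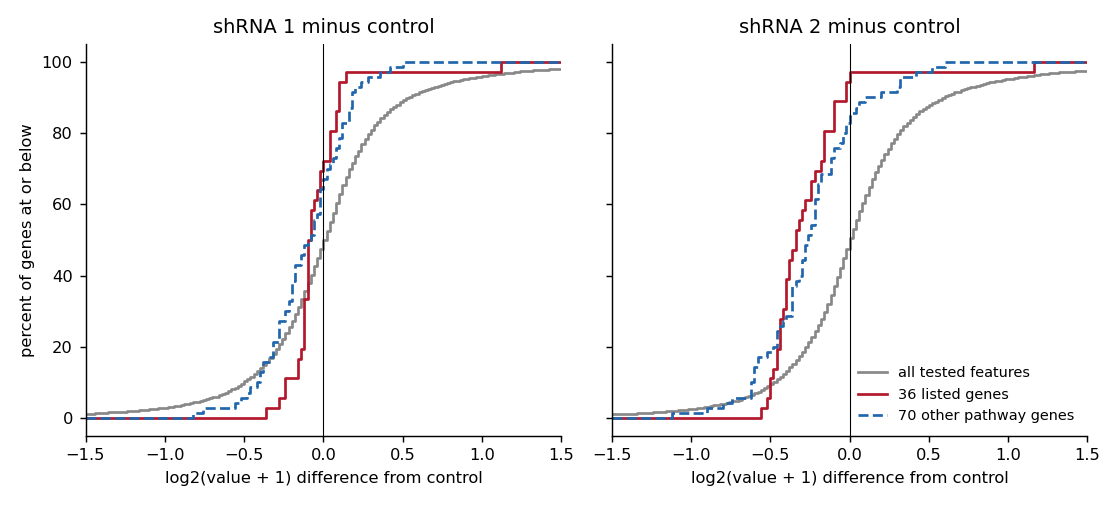
Percent of genes (y axis) at or below a given log2(value + 1) difference from the control (x axis), for shRNA 1 (left) and shRNA 2 (right), with the 36 listed genes, 70 other pathway genes and all tested features as separate lines. The lines of the listed genes and of the other pathway genes lie left of all features by medians of -0.10 and -0.10 with shRNA 1 and of -0.36 and -0.27 under the label shRNA 2; features beyond 1.5 in either direction are not drawn.

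The other genes of the pathway were taken from a list of 78, of which 70 passed the filter and the 8 that did not were interferon genes. Of the 70, 46 were lower than the control in both libraries, against 35.2% of all tested features, and 9 were higher in both, against 34.9%. None passed an adjusted p of 0.05 in limma, while at an unadjusted p under 0.05 there were 6 lower, against 2.42% of all, and 1 higher, against 4.52%. In the library labelled shRNA 2, 12 of 70 were lower by at least 1.5-fold, against 7.19% of all, and 1 was higher, against 9.99%. With shRNA 1, 2 were lower, against 7.85%, and 0 were higher, against 8.83%. By role, 35 of 48 other interferon-stimulated genes were lower in both libraries and 2 were higher in both. The counts were 5 and 2 of 8 kinases and factors, 2 and 2 of 5 negative regulators, and 4 and 3 of 9 genes on the route to Ifnb1, and differences between roles were not tested.

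Of the signalling proteins between receptor and promoter, Irf9, the DNA-binding subunit of ISGF3, had 7105 normalized counts in the control, 7555 with shRNA 1 and 6167 under the label shRNA 2. The kinases differed in direction. Jak1 had 8396, 10732 and 10398, a mean log2 difference of 0.33 (SE 0.12, adjusted p = 0.72 in limma), while Tyk2 had 5578, 5108 and 4362, a difference of -0.24 (SE 0.16). The lowest mean log2 difference of the list was that of Socs1, the feedback inhibitor of JAK kinases, with 514.3, 290.2 and 235.9 normalized counts and a difference of -0.97 (SE 0.26, adjusted p = 0.61). Tdrd7 followed with 10060, 7690 and 5365, and Tap1, a peptide transporter, with 23768, 17564 and 14131. The highest were those of Tmem173 (STING), with 1743, 2328 and 2327, a difference of 0.42 (SE 0.14, adjusted p = 0.69), of Traf3, which links TRIF to TBK1, with 1506, 2102 and 1867, and of Jak1. For Socs1, Tap1, Tmem173, Traf3 and Jak1 the control lay outside the pair by more than the pair's own spread. These genes were picked as extremes of the list in these same data, which favours such a gap, so it gives no support. None of them passed after adjustment over all features, and the share of all features with such a gap was not counted.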

How the data were processed

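Stranded mRNA libraries of LPS-treated RAW 264.7 cells were analysed from the authors' deposited table, which holds 1 column per library of normalized counts per gene (unit: signal). The submitters' processing notes list Salmon, DESeq, DESeq2 and the build GRCm38 but no settings. The way of normalization and the annotation release are not given in the sources used here. Between 82.5% and 83.9% of low values lay within 0.1 of whole multiples of 1 read's worth (0.931, 1.11 and 0.966 in the control, shRNA 1 and shRNA 2 libraries), so reads were not recovered and no count model was used. A value near 1 is about 1 read.

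Groups came from sample titles. Symbols came from a reference list of gene names, with 54097 identifiers matched and 234 not. Positions came from GENCODE M21 (GRCm38). Features with a mean of at least 10 were tested on log2(value + 1) with limma 3.58.1 in R 4.3.3 (lmFit, eBayes with trend), two-sided, Benjamini-Hochberg adjusted over all 13877 features, after the fit was tested on simulated data. Single shRNAs were compared by size (1.5-fold) without a test. Levels per kb used the longest protein-coding transcript. The genes, lists and tests were chosen with earlier results of these data known. Values are given for all listed genes, and of the other pathway genes for Irf9, Jak1, Tyk2 and the 3 highest and 3 lowest mean differences; 1 gene of the rule is not reported here. Alternatives covered pseudocount, filter, scaling, variance trend, GC and length, the fold rule and leaving out each GIV-depleted library.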

Additional observations from a re-analysis of the deposited data

How the results depend on the processing

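The count of genes lower in both libraries was 26 of 36 and ranged from 23 with quantile normalization to 27 after correction for GC content and length. The median mean difference of -0.23 ranged from -0.23 with upper-quartile scaling to -0.17 after that correction, and the 46 other pathway genes lower in both ranged from 44 to 47. With a single GIV-depleted library in place of both, 26 genes were lower (shRNA 1 alone) or 35 (shRNA 2 alone), 1 to 10 were higher, the median was -0.36 to -0.10 and 47 to 60 other pathway genes were lower. Such a comparison of 1 library with 1 has no residual degree of freedom, so no test was run for it. Genes higher in both libraries numbered 2 in place of 1 with equal column totals, where Eif2ak2 joined Ifnb1, and the cause was not tested. Ifnb1 kept its direction in every alternative run, with a log2 difference from 1.08 to 1.16 and an adjusted p in limma from 0.23 to 0.52. Of 324 values of single genes under an alternative that kept both libraries, 7 changed sign, all near 0: with quantile normalization Ifi44 (0.0429), Parp9 (0.00070), Trim30a (0.0420) and Eif2ak2 (0.0150), with equal column totals Eif2ak2 (0.0148), with upper-quartile scaling Ddx58 (-0.00413), and after the GC and length correction Ddx58 (-0.0617). None of the 36 genes passed an adjusted p of 0.05 under any alternative with a test. Over all features 963 had an unadjusted p under 0.05, against 2716 without a filter on low values, and 0 passed after adjustment, against 1 with a filter at 50, equal column totals, upper-quartile scaling or the GC and length correction. No paired analysis was possible because there was 1 control library for 2 shRNA libraries, so the groups share fewer than 2 replicate numbers. With 1 control, its own variation cannot be measured.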
